A study of Mus musculus with 7 samples.

Results

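T cells, natural killer (NK) cells and innate lymphoid cells were looked for among single bone marrow cells sorted as LSK, the lineage-negative fraction with surface Sca-1 and cKit that holds blood stem and progenitor cells. A cell counted as a member when it held at least 3 of 11 genes with 1 or more UMIs (counted RNA molecules): Trbc1, Trbc2, Cd3e, Cd3d, Cd3g, Il2rb, Klrd1, Nkg7, Ccl5, Skap1 and Bcl11b. It also had to be a kept cell, with at least 1000 UMIs, 500 genes and at most 10% mitochondrial UMIs. This rule found 169 members among 24430 kept cells. The rule reads expression, so the levels of its genes describe the members and support nothing, and no gene was tested between members and other cells.

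The study held 7 libraries from mice of 129S1/C57Bl/6 background. The labels put 3 libraries under B4galt1 KO, with the genotype B4-/-, and 4 under WT, with no B4galt1 allele named. They give neither treatment nor age, and they do not say how many animals went into a library, so the spread between libraries may be partly technical. The sort gate, bone marrow source and strain background are shared by both labels.

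T cells carry a rearranged receptor whose constant parts come from Trac with Trbc1 or Trbc2, or from Trdc with the Tcrg genes, and the CD3 proteins carry its signal. NK cells lack that receptor and use receptors such as NKp46 (Ncr1) and the Klr family to release granzymes and perforin. Innate lymphoid cells also lack the receptor, and their type 2 branch depends on Gata3 and Rora. All of them arise from lymphoid progenitors, in which Flt3, Il7r and Dntt are active, and T cell commitment needs Tcf7 and Bcl11b.

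Libraries held between 14970791 and 89747946 UMIs, and the median kept cell of a library between 8046 and 11084 UMIs. KO replicate 3 and WT replicate 4 stood apart: their barcodes opened with 480 sequences of 6 bases, against 900 to 958 in the other 5 libraries, so the former are called list B here and the latter list A. The labels name 1 kit for all libraries. List B kept 98.3% and 96.2% of its barcodes and list A 32.4% to 49.9%. KO replicate 3 and WT replicate 4 shared 88 barcodes, against 0 to 7 for the other pairs of libraries, and no barcode was a member in both.

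B4galt1 (mm10 chromosome 4, minus strand, 40804602 to 40854005, ENSMUSG00000028413) encodes the enzyme that adds galactose to sugar chains and is the gene the KO label names. In the summed members its level was 63.1, 56.3 and 38.6 CPM (UMIs of the gene per 1000000 UMIs of the summed cells) in KO replicates 1 to 3, and 110, 67.7, 83.3 and 44.3 CPM in WT replicates 1 to 4. The groups overlapped. In the other kept cells of the same libraries B4galt1 stood at 51.2, 55.6 and 27.4 CPM under KO and at 56.4, 69.2, 56.6 and 34.7 CPM under WT. Within list A the KO libraries lay below the WT ones in members and in other kept cells, and within list B, with 1 library per label, KO was also lower. These within-list differences were not tested. The member levels rest on 8, 4 and 10 UMIs of B4galt1 in KO replicates 1 to 3 and on 2, 4, 6 and 50 in WT replicates 1 to 4. The order of the members within list A thus rests on very few counts. The labels used here do not give the deleted part of the gene, so the groups are named by their labels.

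Members were rare in 6 libraries and more frequent in 1. They made up 0.326%, 0.348% and 0.350% of kept cells in KO replicates 1 to 3, which is 10, 6 and 24 cells. In WT replicates 1 to 3 they made up 0.241%, 0.256% and 0.400%, which is 3, 3 and 6 cells. WT replicate 4 held 117 members, 1.32% of its kept cells (exact 95% binomial interval 1.09% to 1.58%, counting error only), so 69.2% of all members came from this library.

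The mean share was 0.341% ± 0.0136 (SD, n = 3) under KO and 0.554% ± 0.516 (SD, n = 4) under WT. Their difference, KO minus WT, was -0.213 percentage points, smaller than the spread of the WT libraries (two-sided exact permutation p = 0.971 over 35 splits, smallest possible p = 0.0286). Without WT replicate 4 the difference turned to 0.042 percentage points (exact permutation p = 0.400). Within list A it was 0.038 percentage points (exact permutation p = 0.600). Within list B, with 1 library per label and no test, the values were 0.350% under KO and 1.32% under WT. With cells thinned to 3000 UMIs, WT replicate 4 was still highest, at 0.483% against 0.0853% to 0.192% in the other 6 libraries. Cells with fewer than 3000 UMIs dropped out of this setting, which kept 8693 of 8862 cells of WT replicate 4. Members dropped out with them, since those of WT replicate 4 went down to 1345 UMIs.

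**Figure D1:**
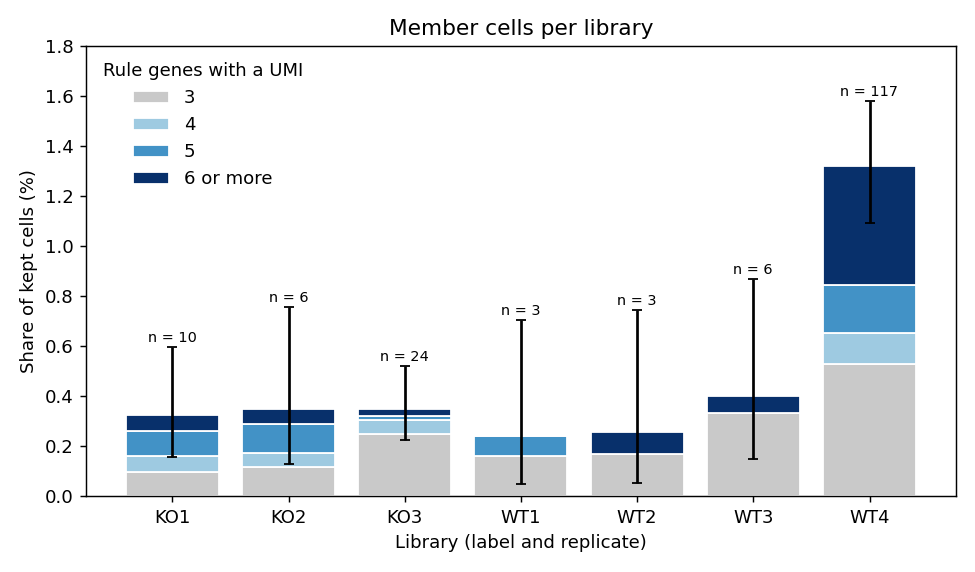
Share of kept cells that were members (%, y axis) in each library (x axis), stacked by the number of rule genes with a UMI; bars carry the exact 95% binomial interval of the total and the number of members. WT replicate 4 stands at 1.32%, and the other 6 libraries lie between 0.241% and 0.400%.

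The name T, NK and innate lymphoid cells fitted only some of the members. Of the 169, 78 held exactly 3 rule genes, 18 held 4, 24 held 5 and 49 held 6 or more. Just outside the threshold stood 1051 kept cells with 2 rule genes, and 13038 more held 1. Nkg7, a granule membrane gene of cytotoxic cells, was detected in 143 members (84.6%) but also in 54.9% of the other kept cells, whose median depth was 9171 UMIs against 9068 in members. The commonest sets in cells of exactly 3 genes were Klrd1 with Nkg7 and Ccl5, and Trbc2 with Klrd1 and Nkg7, with 10 cells each.

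Cells with exactly 3 rule genes looked like cells with 2 in their stem and progenitor genes. The summed level of the 12 genes of that list was 2989 CPM in cells with 2 rule genes, 2929 CPM with 3, 1560 CPM with 4, 1644 CPM with 5 and 1600 CPM with 6 or more. The median cell held 8 of the 12 genes with 2 and with 3 rule genes, and 4.5, 3 and 1 with 4, 5 and 6 or more. Depth moved with this order, from a median of 12669 UMIs with 2 rule genes to 11077, 9217, 6867 and 5349 UMIs. With all cells thinned to 1000 UMIs the median number of stem genes was 2, 2, 1, 1 and 0.

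Lymphoid genes outside the rule went the other way. Tcf7, a transcription factor of early T and innate lymphoid cells and of the Wnt pathway, stood at 2.19 CPM in cells with 2 rule genes and at 44.4, 303, 238 and 234 CPM with 3, 4, 5 and 6 or more. Id2, which lymphocytes of the innate branches need, stood at 20.7 CPM and then at 109, 219, 314 and 455 CPM. Ncr1 was at 0 in cells with 2 and with 3 rule genes, and at 22.4, 147 and 174 CPM with 4, 5 and 6 or more. In these sums, cells with exactly 3 rule genes thus stood near progenitors in stem genes and between progenitors and the other members in lymphoid genes. Tcf7 had a UMI in 1.52% of cells with 2 rule genes and 11.5% with 3. With 4, 5 and 6 or more it was 61.1%, 58.3% and 53.1%. The sums do not show whether single cells with 3 rule genes were in between. Members with 4 or more rule genes numbered 70 in WT replicate 4, 7 each in KO replicates 1 and 3, 4 in KO replicate 2 and 1 in each of WT replicates 1 to 3.

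**Figure D2:**
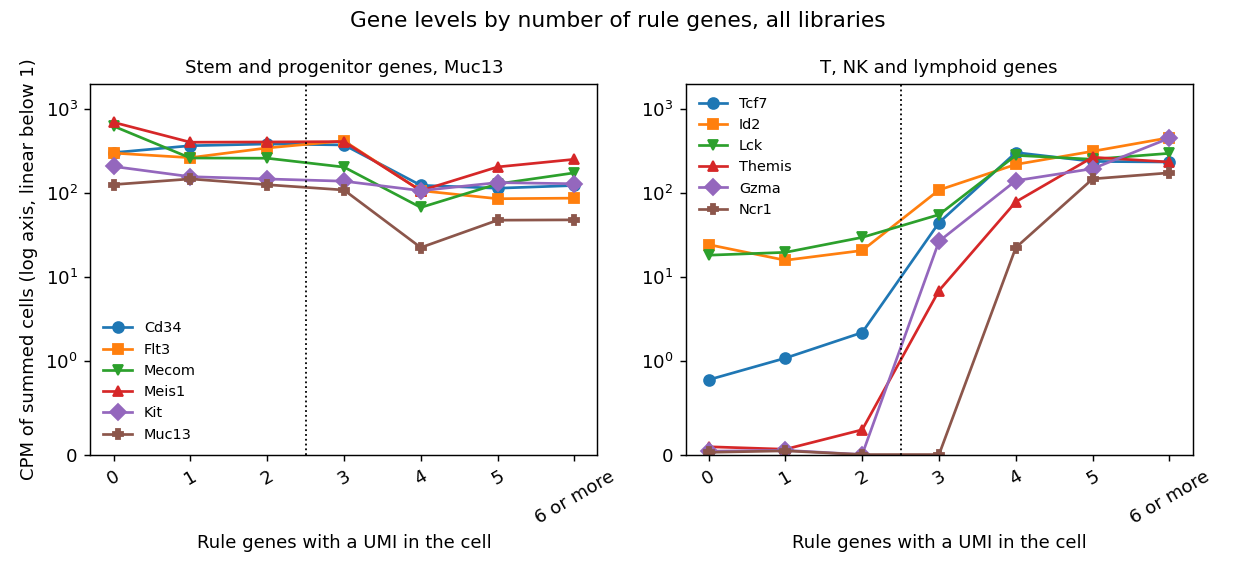
Level in CPM of summed cells (y axis, logarithmic and linear below 1) against the number of rule genes with a UMI (x axis), all libraries summed; the dotted line marks the threshold of the rule. Flt3 stands at 417 CPM with 3 rule genes and at 107 CPM with 4, while Themis goes from 6.91 to 78.6 CPM.

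**Figure D3:**
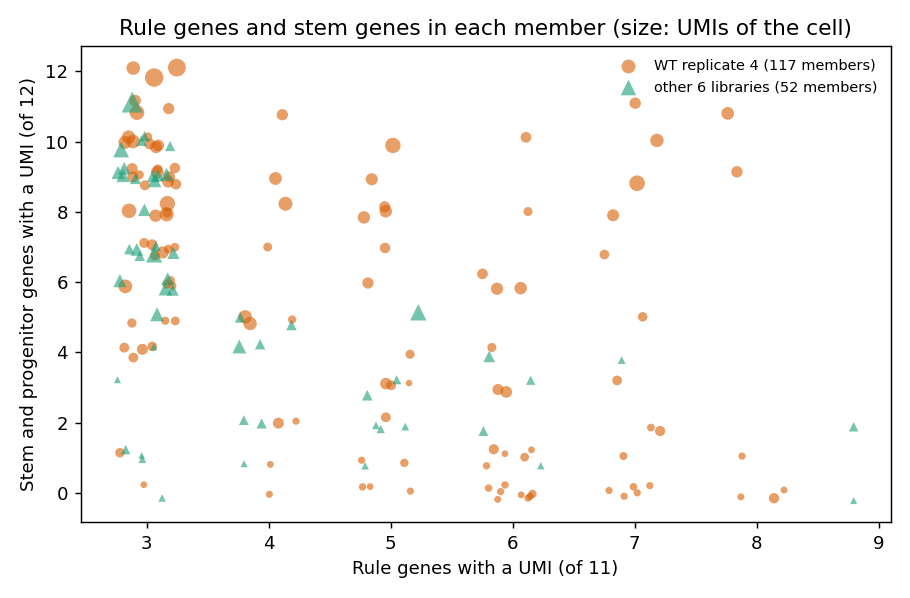
Stem and progenitor genes with a UMI (y axis, of 12) against rule genes with a UMI (x axis, of 11) in each of the 169 members, with a small random shift; area grows with the UMIs of the cell. Members with 6 or more stem genes number 85, and 23 members hold none.

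Among the rule genes, those of the T cell receptor were frequent and those of CD3 less so. Trbc2 (chromosome 6, 41546730 to 41548352) had a UMI in 100 members and 1.33% of other kept cells, and Trbc1 (chromosome 6, 41538218 to 41539881) in 83 members and 0.305%. The constant regions coded by this pair are near-identical copies, so the split between them is uncertain. Either was present in 131 members, of which 94 held at least 1 of them without any CD3 gene. A CD3 gene (Cd3d, Cd3e or Cd3g, side by side on chromosome 9) was found in 48 members, 40 of them in WT replicate 4, and all 3 of them in 19 members. Skap1, an adaptor protein of T cell adhesion, had a UMI in 98 members, and Bcl11b, the T commitment factor, in 45 members against 0.0577% of other kept cells.

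In the rest of the T cell list, all 18 genes outside the rule were detected in members. Of these, 11 were higher than in the other kept cells of the same library in each of the 3 libraries with at least 10 members (KO replicates 1 and 3 and WT replicate 4), and 0 were lower in each. Over all 10310 genes with a UMI in at least 5% of members, 16.3% were higher in each of the 3 and 16.6% lower. The median log2 ratio of the list was 3.73, and 2.85 without WT replicate 4, against -0.02 over all those genes. These counts describe cells chosen on related genes.

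RNA of the constant genes of both kinds of T cell receptor was counted in members. A UMI of a constant gene does not show whether a receptor was rearranged or made. Trac, the alpha constant gene, had a UMI in 21 members, 18 of them in WT replicate 4 and 0 in KO replicates 1 and 3. Trdc, the delta constant gene, had a UMI in 31 members: 1, 0 and 5 in KO replicates 1 to 3, 0, 1 and 0 in WT replicates 1 to 3, and 24 in WT replicate 4. Only 3 members held both. At least 1 of the gamma constant genes Tcrg-C1, Tcrg-C2 and Tcrg-C4, on chromosome 13, was found in 42 members. Of these, 14 also held a CD3 gene. Tcrg-C1 and Tcrg-C2 are near-identical copies. A variable segment of any receptor chain was counted in 18 members.

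Cd8a or Cd8b1, the coreceptor of cytotoxic T cells, had a UMI in 19 members, all of which also held a CD3 gene. WT replicate 4 held 18 of the 19 and WT replicate 1 the other. Their median depth was 2491 UMIs. Cd4 was found in 3 members (1.78%) and in 1.90% of other kept cells, a share no higher than background.

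Among genes outside the rule with a UMI in at least 20% of members, Themis had the highest ratio (1 CPM added). Themis, which sets signal strength during T cell selection, stood at 89.3 CPM in members against 0.0765 CPM in other kept cells. By library it was 39.5, 0 and 38.6 CPM in KO replicates 1 to 3 and 384, 135, 0 and 111 CPM in WT replicates 1 to 4, so it was missing from the members of a library under each label. Tcf7 followed, at 174, 56.3 and 177 CPM under KO and 54.8, 254, 153 and 113 CPM under WT. It had a UMI in members of every library, and the labels overlapped.

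Other genes named by the same rule were Gm2682, Ms4a4b, Gimap4, Ikzf3, Trat1, Txk, Cd7, Grap2, Il7r, Thy1, Id2 and Ccr9. Il7r, the receptor of a cytokine that lymphocytes need, stood at 118 CPM in members against 7.62 CPM in other kept cells. Ccr9, a homing receptor for thymus and gut, had a UMI in 36 members and stood at 57.6 CPM, 77.9 CPM in WT replicate 4 and 7.89 and 38.6 CPM in KO replicates 1 and 3.

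Ncr1, the gene of the NK receptor NKp46, had a UMI in 28 members, 4, 1 and 2 in KO replicates 1 to 3, 0 in WT replicates 1 to 3 and 21 in WT replicate 4. It stood at 53.6 CPM in members and 0.0328 CPM in other kept cells. Of its 28 cells, 26 also held Trbc1 or Trbc2 and 2 held a CD3 gene. Klrk1, an activating receptor, was found in 33 members and Klrd1, its neighbour on chromosome 6 and a rule gene, in 63.

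Gzma, a granzyme of cytotoxic lymphocytes, stood at 214 CPM in the members of WT replicate 4 and 33.9 CPM in those of WT replicate 2, and 0 in the members of the other 5 libraries. In KO replicates 1 and 3, with 10 and 24 members, a count of 0 allows up to 23.7 and 11.6 CPM (3 counts). In KO replicate 2 and WT replicates 1 and 3 it allows up to 42.2, 164 and 41.6 CPM, above the level of WT replicate 2, which rests on 2 UMIs of 1 cell, so those libraries are not told apart. By contrast Eomes and Tbx21, transcription factors of NK cells, stood at 94.7 and 78.9 CPM in KO replicate 1, at 0 and 11.6 CPM in KO replicate 3 and at 14.2 and 23.0 CPM in WT replicate 4. Gzmb had UMIs in 1 member and Prf1, which codes for perforin, in 16. Of the 18 NK list genes outside the rule, 10 were higher than in other kept cells in each of the 3 libraries and 0 were lower, against 16.3% and 16.6% of all genes. Their median log2 ratio was 4.34 (2.83 without WT replicate 4). Klra4 and Klra7 belong to a family of near-identical receptors, so their counts are uncertain. Both were at 0 in KO replicates 1 and 2 and in WT replicates 1 to 3, and KO replicate 3 had 7.71 CPM of Klra4.

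Of the 17 genes of the innate lymphoid list, none of which is in the rule, 12 were higher in members in each of the 3 libraries and 0 were lower. The shares of all genes were 16.3% and 16.6%. The median log2 ratio of the list was 1.96 (2.24 without WT replicate 4). Tox, needed for innate lymphoid development, had a UMI in 120 members and 42.0% of other kept cells, at 367 against 93.3 CPM. Id2 stood at 211 against 18.7 CPM, Rora at 130 against 43.7 CPM and Gata3 at 64.0 against 8.97 CPM. Zbtb16, a factor of innate-like lymphocytes, stood at 112 against 30.3 CPM. Its level was 158, 113 and 158 CPM under KO and 274, 119, 583 and 62.9 CPM under WT, so WT replicate 4 was the lowest of the 7. Il1rl1, the receptor of interleukin 33 on type 2 innate lymphoid cells, was found in 10 members.

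Of 10 effector cytokine genes 6 were detected in members. Tnf had a UMI in 30 members, at 32.3 against 24.3 CPM in other kept cells. Ifng had one in 9 members, at 6.92 against 0.0291 CPM, Il4 in 9, at 6.92 against 3.55 CPM, and Fasl, a death ligand, in 5. Il5, Il13, Il17a and Il22 had 0 UMIs among the 1735293 UMIs of the members, which allows up to 1.73 CPM each. Ccl3 and Ccl4, chemokines of activated lymphocytes and myeloid cells, stood at 213 and 177 CPM in members, and at 147 and 144 CPM in other kept cells. Homing genes were mixed: 5 of 12 were higher in each of the 3 libraries and 0 lower, against 16.3% and 16.6% of all genes. Among the 5 was Selplg, a selectin ligand whose binding depends on its sugar chains, at 217 against 119 CPM.

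Members were also sorted by 3 short marker lists, each called when at least 2 of its genes had a UMI. The T list (Cd3d, Cd3e, Cd3g, Trac, Trbc1, Trbc2, Trdc) was called in 78 members, the NK list of 11 genes in 45 and the type 2 innate lymphoid list (Gata3, Rora, Il1rl1, Il17rb, Icos, Areg), below ILC2, in 45. Several of these genes are rule genes. Among the 24261 other kept cells the T list was called in 4, all in WT replicate 4, and the NK list in 0 to 10 per library, but the ILC2 list in 2.5% to 6.22%, since Rora and Gata3 are also found in progenitors.

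The lists combined in every way. T alone was called in 33 members, T with NK in 21, T with ILC2 in 22, NK alone in 17, NK with ILC2 in 5, ILC2 alone in 16 and all 3 in 2. None was called in 53 members, every one of which held exactly 3 rule genes.

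T alone was led by Cd8b1 (222 CPM, 16 of 33 cells), Themis (196 CPM), Lef1 (170 CPM), Tcf7 (181 CPM) and Trac (62.8 CPM). Trac belongs to the T list that called the group. Of the 33 cells of T alone, 27 came from WT replicate 4. T with NK was led by Gzma (1014 CPM, 12 of 21 cells), Klra4 (462 CPM), Klrk1 (625 CPM), Ncr1 (357 CPM) and Klre1 (341 CPM). Trdc stood at 203 CPM there, and Cd3e, the chain of the CD3 complex, had a UMI in 3 of the 21 cells. The call itself required 2 genes of each list, so NK and receptor genes in these cells are set by how they were grouped.

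T with ILC2 had a different set. Tcrg-C1 stood at 894 CPM (10 of 22 cells), Tcf7 at 478 CPM (17 cells), Zbtb16 at 447 CPM (17 cells), Themis at 393 CPM, Rora at 460 CPM (21 cells) and Gata3 at 244 CPM (18 cells). Rora and Gata3 belong to the ILC2 list that called the group, so they describe the grouping. Bcl11b stood at 672 CPM against 270 CPM in T alone. Dntt, which adds bases to receptor joints in early lymphocytes, stood at 722 CPM, and Cpa3, a mast cell protease also found in progenitors, at 533 CPM in 17 cells. Cd8b1 was at 0. Of the 22 cells, 17 were in WT replicate 4, 2 in KO replicate 3, 1 in WT replicate 2 and 2 in WT replicate 3.

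NK alone held Gzma (477 CPM, 6 of 17 cells), Ncr1 (215 CPM, 9 cells) and Klre1 (202 CPM, 10 cells), and 14 of its cells came from WT replicate 4. Gzma, Ncr1 and Klre1 belong to the NK list that called the group, so they describe the grouping. In NK alone Flt3 stood at 195 CPM, Mecom at 134 CPM, Kit at 148 CPM and Cd34 at 269 CPM. Mpo at 1895 CPM and Ctsg at 2190 CPM were also counted there, and the KO replicate 1 cell of 29177 UMIs described with Prtn3 is one of its cells. ILC2 alone held Cxcr6 (81.3 CPM), Il1rl1 (75.9 CPM), Icos (54.2 CPM) and Il7r (179 CPM), of which Il1rl1 and Icos belong to the list that defined the group. Flt3 at 412 CPM and Mecom at 228 CPM stood beside 278 and 372 CPM in other kept cells, and Kit and Cd34 stood at 135 and 287 CPM. The groups were not tested against each other. The 53 members with none of the lists held Dntt at 759 CPM (35 cells), Flt3 at 439 CPM, Arpp21 at 114 CPM and Ighm at 351 CPM, and 45 of them held at least 6 stem genes.

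**Figure D4:**
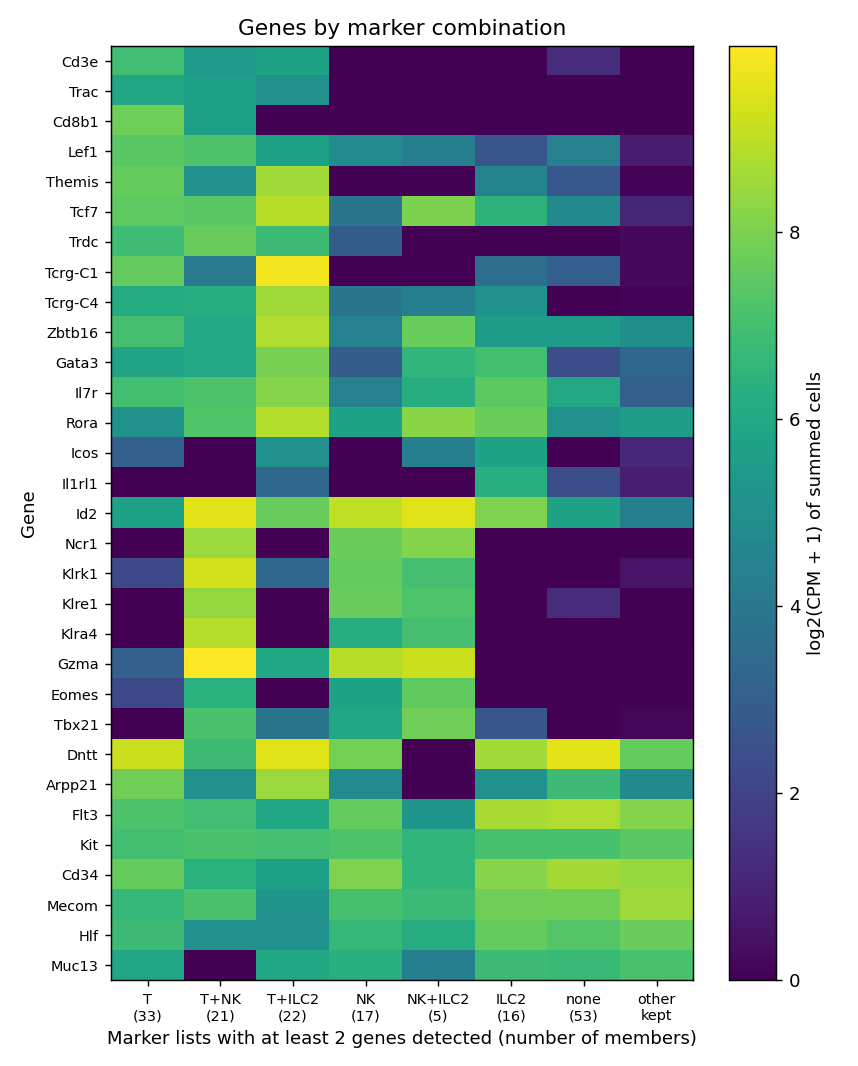
Level as log2(CPM + 1) of summed cells (colour) for 31 genes (rows) in members grouped by the marker lists called (columns, number of members in brackets) and in the other kept cells; the 2 members with all 3 lists are left out. Gzma, itself a gene of the NK list, reaches 1014 CPM in T with NK. Tcrg-C1 reaches 894 CPM in T with ILC2, and the column with no list keeps Flt3 at 439 CPM.

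By the minimum of 10 members set for composition, only KO replicates 1 and 3 and WT replicate 4 counted, which leaves 1 WT library and values without a test. The T list was called in 2 of 10 and 6 of 24 members of KO replicates 1 and 3 (20% and 25%, exact 95% intervals 2.52% to 55.6% and 9.77% to 46.7%) and in 63 of 117 in WT replicate 4 (53.8%, 44.4% to 63.1%). The NK list was called in 6 of 10, 2 of 24 and 35 of 117 (60.0%, 8.33% and 29.9%), so the 2 KO libraries lay on either side of the WT one. The ILC2 list was called in 30%, 29.2% and 24.8%. In the smaller libraries, KO replicate 2 had 2, 2 and 1 of 6 members with the T, NK and ILC2 lists, and the 12 members of WT replicates 1 to 3 included 5 with T, 0 with NK and 5 with ILC2. Over all 7 libraries, an alternative chosen after seeing the data, the mean share with the T list was 26.1% ± 6.74 (SD, n = 3) under KO and 46.8% ± 16.4 (SD, n = 4) under WT (two-sided exact permutation p = 0.171 over 35 splits). The NK share was 33.9% ± 25.8 and 7.48% ± 15 (exact permutation p = 0.171), the ILC2 share 25.3% ± 7.47 and 35.4% ± 29.2 (exact permutation p = 0.600). With the share of cycling members as the fourth, the adjusted p-values were 0.343 for T and NK and 0.771 for ILC2 and cycling.

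The T-list shares also moved with the number of rule genes. This is partly built in, since Cd3d, Cd3e, Cd3g, Trbc1 and Trbc2 are both T-list and rule genes. Of the 24 members of KO replicate 3, 17 held exactly 3 rule genes. Among members with 4 or more, the T list was called in 2 of 7 in KO replicate 1 (28.6%), 6 of 7 in KO replicate 3 (85.7%) and 57 of 70 in WT replicate 4 (81.4%).

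The sort selects on the proteins of Kit and Ly6a, which codes for Sca-1. A UMI of either was found in 102 members (60.4%) and in 81.9% of other kept cells. Kit was detected in 83 members and stood at 133 CPM against 171 CPM, and at 173 CPM in members without WT replicate 4. By library it stood at 245, 267 and 147 CPM in KO members against 164, 198 and 137 CPM in the other kept cells, and at 164, 67.7, 139 and 111 CPM in WT members against 254, 306, 311 and 142 CPM. Members were thus higher in each KO library and lower in each WT library, which was not tested. How many of all genes split this way was not counted. In WT replicates 1 to 3 Kit had a UMI in only 1, 2 and 4 members. Between the labels Kit was not called in the member sums (log2 fold change 0.858, KO minus WT, edgeR adjusted p 0.997). Ly6a stood at 45.5 against 38.8 CPM. The 67 members with neither had a median of 4463 UMIs, so their depth was lower than that of members with either (11718 UMIs). Of the 12 stem and progenitor genes, 7 were lower in members in each of the 3 libraries and 1 was higher. Of all genes, 16.6% were lower and 16.3% higher. Meis1 stood at 323 against 491 CPM, Cd34 at 268 against 347 CPM and Mecom at 175 against 372 CPM.

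Some members held genes of both kinds. A CD3 gene occurred together with 6 or more stem genes in 19 members, 17 of them in WT replicate 4, with a median depth of 12476 UMIs, against 2381 UMIs in the 11 members with a CD3 gene and no stem gene. Ncr1 occurred with 6 or more stem genes in 7 members, all in WT replicate 4. Doublet scores were among the highest of their library in 18 members, 14 of them in WT replicate 4, and 10 members lay above the 95th UMI percentile of their library. Without the cells of the highest doublet scores WT replicate 4 held 103 members among 8209 kept cells.

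Of the early lymphoid genes, Dntt stood at 564 against 197 CPM and Arpp21 at 136 against 25.6 CPM. In each of the 3 libraries 3 of the 6 genes of the list were higher, against 16.3% of all genes. Dntt by library was 221, 70.4 and 953 CPM under KO and 54.8, 1846, 791 and 471 CPM under WT, so KO replicate 2 and WT replicate 1 were lowest, and there members lay below the other kept cells (81.2 and 248 CPM). Dntt was at 691 CPM in members with exactly 3 rule genes and at 210 CPM in those with 6 or more. Rag1 was found in 6 members. Of the 10 B cell genes, 1 was higher in each of the 3 libraries and 2 were lower, against 16.3% and 16.6% of all genes. Ighm, the highest of them, had a UMI in 116 members and 38.9% of other kept cells, at 277 against 134 CPM. Igll1 had UMIs in only 2 members, and Ebf1 of the early lymphoid list in 5.

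Among genes of other lineages, all 5 neutrophil genes were lower in each of the 3 libraries, with S100a8 at 3.46 against 433 CPM and S100a9 at 3.46 against 615 CPM. Over all genes with a UMI in at least 5% of members, 16.6% were lower in each of the 3 and 16.3% higher. Of 7 erythroid genes 5 were lower, and of 5 megakaryocyte genes 3, with Pf4 at 26.5 against 178 CPM. Of the 5 granule genes 4 were lower in each of the 3 libraries. Other lists did not go one way. Of 6 monocyte genes 3 were higher in each of the 3 libraries and 2 lower. Of 6 dendritic cell genes 0 were higher and 1 was lower, the latter near the share of all genes. Their summed level was 761 against 506 CPM, or 402 CPM in members without WT replicate 4. Cd74 of that list stood at 211 against 60.9 CPM, and at 19.8 CPM without WT replicate 4. Of 4 mast cell and basophil genes 0 were higher and 2 were lower, with a summed level of 187 against 127 CPM, or 102 CPM without WT replicate 4, and Cpa3 at 114 against 17.3 CPM. Their part in the other results was not tested.

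Cycling cells were also found among the members. At least 3 of 10 mitotic genes were found in 51 members (30.2%). By library this was 30%, 50% and 25% under KO (3 of 10, 3 of 6 and 6 of 24 members). Under WT it was 33.3%, 100%, 33.3% and 28.2% (1 of 3, 3 of 3, 2 of 6 and 33 of 117 members). In the other kept cells it was 49.2%, 50.2% and 33.4% under KO and 41.3%, 41.3%, 31.9% and 28.8% under WT. Within members, 24 of the 53 cells with no marker list (45.3%) held that many mitotic genes, against 6 of 33 with T alone and 4 of 21 with T and NK, which were also shallower.

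Members summed per library were then compared between the labels over all 7 libraries. The fit used edgeR's quasi-likelihood test with Benjamini-Hochberg adjustment, an alternative to the planned minimum of 10 members, since only 1 WT library reached it. It called 0 of 1449 genes (0%), while 16 had an unadjusted p below 0.05. In DESeq2 1 of 1447 genes was called (0.0691%). The sums of 4 of the libraries rest on 3 to 6 cells.

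Granule genes stood first. Prtn3, a protease of neutrophil precursors, was the gene DESeq2 called (log2 fold change 3.73, KO minus WT, adjusted p 0.0012), and in edgeR its log2 fold change was 3.70 (adjusted p 0.174). Its level was 2171, 1041 and 216 CPM under KO and 54.8, 50.8, 27.8 and 129 CPM under WT, with no overlap. In KO replicate 1, 256 of its 275 UMIs came from 1 member, and in KO replicate 2, 71 of 74. Without the member richest in Prtn3, each library's level was 195, 144 and 193 CPM under KO and 0, 0, 0 and 126 CPM under WT. In each of WT replicates 1 to 3 only 1 member held a UMI of Prtn3, so 0 there was fixed by leaving it out. In KO replicate 2 only 2 members held one. These levels therefore do not show whether the labels differ without the richest members. Mpo, the peroxidase of the same granules, had 235 of 267 UMIs in 1 member of KO replicate 1 and 186 of 198 in 1 member of KO replicate 2, and an edgeR log2 fold change of 2.36 (adjusted p 0.969). In the other kept cells Prtn3 stood at 2763, 1144 and 695 CPM under KO and at 449, 278, 165 and 372 CPM under WT, and Mpo at 3174, 2444 and 1063 CPM against 895, 738, 377 and 586 CPM, so neither overlapped there. The cell in KO replicate 1 held 5 rule genes among 29177 UMIs and the one in KO replicate 2 held 3 among 50270 UMIs.

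**Figure D5:**
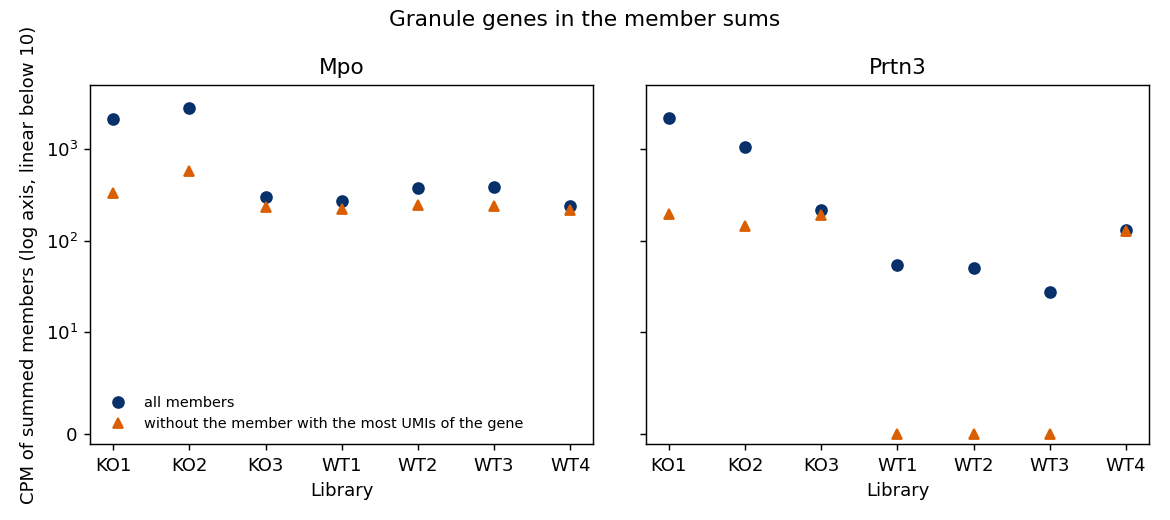
Level of Mpo and Prtn3 in CPM of summed members (y axis, logarithmic and linear below 10) in each library (x axis), with all members and without the member with the most UMIs of that gene. In KO replicate 1 Prtn3 goes from 2171 to 195 CPM when 1 member is left out. In WT replicates 1 to 3 it falls to 0, since only 1 member of each held a UMI of Prtn3.

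Of the other genes with the smallest p, none was called by edgeR. Higher under KO were Pdia6, a folding enzyme of the endoplasmic reticulum (log2 fold change 1.29, edgeR adjusted p 0.997), and Emb, an adhesion protein (1.19). Lower were Bcl11b (-1.91), Diaph3, which nucleates actin (-1.55), Msi2, an RNA-binding protein of stem cells (-1.18), and Angpt1, a ligand of the Tie2 receptor (-1.62), each with an edgeR adjusted p of 0.997. Bcl11b stood at 94.7, 14.1 and 65.6 CPM under KO and at 329, 525, 41.6 and 150 CPM under WT, so the labels overlapped through WT replicate 3.

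Muc13 (ENSMUSG00000022824, chromosome 16, 33794037 to 33819934 on the plus strand), a membrane mucin named in the title of the series, had UMIs in 50 members and 57.1% of other kept cells, at 80.7 against 139 CPM. In the members it stood at 39.5, 127 and 185 CPM under KO and at 0, 33.9, 27.8 and 65.5 CPM under WT (exact permutation p = 0.114 over 35 splits). Over the libraries with at least 10 members the difference, KO minus WT, was 46.8 CPM. It turned to -26.1 CPM without KO replicate 3.

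Within list A both KO libraries lay above the 3 WT ones, and within list B 185 stood against 65.5 CPM. These sums rest on 5, 9 and 48 UMIs under KO and 0, 2, 2 and 74 under WT, and 1 member gave 8 of the 9 in KO replicate 2. The other kept cells had 95.6, 120 and 221 CPM under KO and 104, 126, 90.2 and 109 CPM under WT, so KO replicate 3 was also highest there. Muc13 was lower in members with more rule genes, at 109 CPM with 3 and 22.4, 47.5 and 47.9 CPM with 4, 5 and 6 or more.

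Among 20 genes of galactose and sialic acid addition, Muc13 included, 6 were higher in members in each of the 3 libraries and 4 were lower, against 16.3% and 16.6% of all genes, with a median log2 ratio of -0.06. St6gal1, a sialyltransferase, stood at 16.7 against 5.59 CPM, and St3gal6 at 35.7 against 13 CPM. Gcnt2, which branches sugar chains, stood at 176 against 287 CPM and was lower in all 7 libraries. B4galt2 had 0 UMIs in members, and B4galt3 to B4galt7 stood between 13.3 and 23.6 CPM.

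Of 10 Wnt pathway genes, 2 were higher in members in each of the 3 libraries and 2 were lower, shares near the 16.3% and 16.6% of all genes. Tcf7 and Lef1, the pathway's DNA-binding factors and also T cell genes, were the 2 that were higher, at 131 against 1.06 CPM and 54.7 against 0.754 CPM. Axin2, a target of the pathway, had UMIs in 7 members.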

How the data were processed

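RNA of LSK cells from 7 libraries was counted with a 10X Genomics 3′ single-cell kit (Single Cell 3′ v2, per the labels' protocols), and the authors deposited whole-number UMI counts per gene and barcode. Cell Ranger 7.0.0 made them, per the file headers and the submitters' processing notes, which also name Seurat 4.4.0 and mm10. The counts are not normalized, and what Seurat did is not given in the sources used here. Cells were filtered as the opening states. CPM is the UMIs of a gene per 1000000 UMIs of the summed cells.

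Scrublet called only 0 to 5 barcodes per library, too few to rely on, so doublets were not removed. An alternative leaves out the highest scores at 0.8% per 1000 barcodes.

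The members and gene lists were chosen with earlier results of these data known. Members were compared with other kept cells as a description. The share was tested by exact permutation over libraries. Counts summed per library were fitted with edgeR 4.0.16 (TMM, filterByExpr, robust), with DESeq2 1.42.0 beside it. The planned minimum of 10 members left 1 WT library, so this fit used every library, a departure towards a listed alternative. Tested on simulated counts for that comparison (1497 genes tested, log2 fold change 3, dispersion 0.1), it called 126 of 126 changed genes and 7 unchanged ones. The 126 are the changed genes that passed the gene filter, and those it removed are not counted. Simulated means came from the kept cells with 1 dispersion for all genes. In the real sums 1 member can give most UMIs of a gene, so the simulation does not give the power there.

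Genes were named by a rule: B4galt1, Muc13, the 11 rule genes, the 3 highest per list, Kit, Ly6a, the 15 largest ratios to other cells (1 CPM added) among genes in at least 20% of members, and the 4 smallest p per direction. Other genes were chosen after their values were seen, and 1 gene the rule names is not reported here. Positions are from GENCODE for the same build, matched by gene ID. Intervals cover counting error only.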

Additional observations from a re-analysis of the deposited data

Results flagged for a closer look

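The member share of WT replicate 4, 1.32% of kept cells, lay far above the other 3 WT libraries, which held between 0.241% and 0.400%. Its gap to the nearest of them was 0.853 of the range of the 4 libraries.

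The NK list was called in 29.9% of the members of WT replicate 4 and in 0% of those of WT replicates 1 to 3. Those libraries held 3, 3 and 6 members, so the exact 95% upper limits of their shares were 70.8%, 70.8% and 45.9%. Chance flags about 1 in 20 groups.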

How the results depend on the processing

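The member share kept its sign and stayed past no threshold under other UMI, mitochondrial, doublet, depth and rule-gene settings. Leaving out single libraries gave differences from -0.318 to 0.042 percentage points, the highest and only positive one without WT replicate 4. Barcode list A alone gave 0.038 and the replicate block over replicates 1 to 3 gave 0.042 (exact permutation p = 0.5), both reversed in sign, and list B alone gave -0.970. Correlations of equal replicate numbers were 0.649, 0.858 and -0.482, and those of unequal numbers ran from -0.793 to 0.610. For each KO library the equal number was the highest of its values. WT replicate 3, however, correlated most with KO replicate 2 (0.484). Whether the numbers pair the samples was not tested.

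With values only, the T-list difference of -31.3 percentage points was -19.7 under the rule without Nkg7, an alternative chosen after seeing the data. The ILC2-list difference of 4.80 was 3.66 with 2000 UMIs, 0.691 without the highest doublet scores and 10.3 without Nkg7. The cycling difference of -0.705 was -10.3 without Nkg7 and 2.63 without the highest doublet scores. Over all 7 libraries, also added after seeing the data, T was -20.7, ILC2 -10.1 and cycling -13.7 percentage points, the ILC2 difference thereby turning in sign. The NK-list difference of 4.25 was -21.6 without KO replicate 1 and 30.1 without KO replicate 3. The B4galt1 difference of 6.57 CPM was -23.6 CPM over all 7 libraries (exact permutation p = 0.229).

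The edgeR fit over every library called 0 genes, and 0 with a covariate for the barcode list, with 4 or more rule genes and without the highest doublet scores. It called 16 without the gene filter, 2 with the replicate block, 9 in list A alone and 1 by DESeq2. Leaving out single libraries gave 0 to 8, with 8 without KO replicate 3 and 1 without WT replicate 4. Prtn3 was called in each of the fits with a call. These were added after seeing the data, and their cause was not tested.

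At a minimum of 10 members, edgeR, DESeq2, the covariate, the block and list A could not be fitted for sums, because WT then has 1 library. With 4 rule genes or thinned cells no KO library reached 10 members, so those settings give no composition difference under that minimum. With 3 to 24 members in 6 libraries, the intervals of their composition are wide.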
